A study of Oryza sativa with 32 samples.

Results

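The 100 transcripts described here stood highest in rice panicles at 14 h after dawn, early in the night. They were taken from the deposited CPM values (library counts scaled to a common total). A gene qualified with a mean of at least 10 CPM over the 32 libraries, its highest of 8 time means at 14 h, and its lowest 14 h library above every library of the gene's lowest time. Genes were ranked by log2 of (14 h mean + 1) over (lowest mean + 1), and the first 100 were kept. Of 37829 gene identifiers, 14622 reached 10 CPM, 1810 of these were highest at 14 h, and 977 also met the condition on separate libraries. Because the 14 h level and the lowest level chose the members, a gene's differences from its 14 h or its lowest level are given as a description, without a p-value.

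Many plant transcripts follow the time of day under the circadian clock, light and temperature. The clock is built of genes with morning and evening peaks that act on each other, and in rice the length of the night, read through phytochromes, the clock and flowering-time genes, sets when the plant flowers. The panicle is a compound organ: green bracts carry out photosynthesis, while anthers hold pollen that changes its set of transcripts as it matures, so a panicle library mixes leaf-like tissue with reproductive cells. In such bulk samples fewer cells of a type and less RNA per cell cannot be told apart.

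The panicles came from IR64, an indica variety of Oryza sativa, that grew untreated on a field plot at IRRI in the Philippines in a dry season, and they were collected at 50% flowering. The 8 times were dawn, 3.5 h, 7 h, 10.5 h, dusk, 14 h, 17.5 h and 21 h, counted from dawn, each with 4 libraries of poly(A) RNA made with a strand-marking kit. The labels give dusk no hour. Nor do they state that libraries of 1 time are separate plants, so p-values here measure the spread among samples, part or all of which may be technical. Each of the 8 groups shares genotype, field and stage, and they differ in the labels by time alone.

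Libraries held 10.8 to 43.9 M counts (M for mega) with a median of 16.8 M, and both extremes were 14 h libraries, replicate 4 with the fewest and replicate 3 with the most. Over genes of at least 10 CPM, dawn replicate 4 (median r = 0.663), 21 h replicate 3 (0.768) and dusk replicate 1 (0.791) resembled the other libraries of their time least. The next were 14 h replicate 4 (0.844) and 10.5 h replicate 3 (0.846), and the other 27 libraries had medians above 0.90. Counts of members called between times are therefore given with and without the 3 lowest libraries. The markers of mature pollen, tapetum, dividing cells and green tissue were all present in panicle libraries, and their sums varied between libraries of 1 time: pollen markers (MADS62, MADS63 and MADS68, transcription factors of late pollen) summed to between 6.04 and 61.7 CPM among the 14 h libraries. All 3 pollen markers were counted, MADS63 in all but 1 library, while of the tapetum markers PTC1 was at 0 in 26 libraries and EAT1 in 4.

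The 100 members fell into 2 kinds by the time at which they were lowest, shown in the map of time means. For 78 members the low point was in the day or the hours around dawn: 36 were lowest at 7 h, 33 at 3.5 h, 5 at dawn, 3 at 21 h and 1 at 10.5 h. The other 22 were lowest at 17.5 h, the sampling time right after their peak. The first kind traced a broad evening plateau and, by the median member, varied less between the libraries of a time. The second kind varied more between libraries of 1 time than between times, as some members of the first kind also did. This grouping was made after the values were seen.

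**Figure D1:**
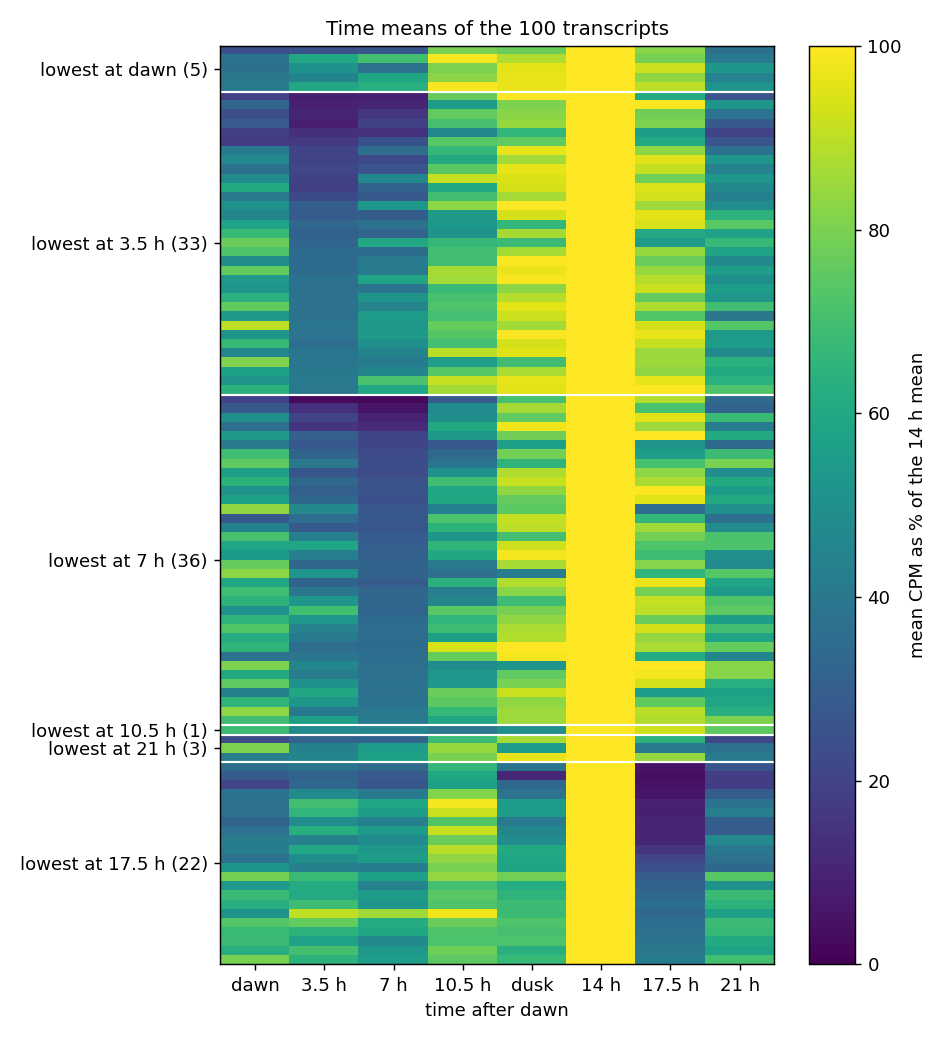
Mean CPM of each of the 100 transcripts (rows, grouped by the time of the lowest mean and in rank order within a group) at the 8 times (columns), as a percentage of the gene's own 14 h mean. Most of the 78 transcripts lowest outside 17.5 h are also high at dusk and 17.5 h, whereas the 22 at the bottom drop at 17.5 h.

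The 78 transcripts with a daytime or dawn low point were high over a stretch of the evening and night. As a percentage of the 14 h mean, their median level was 54.4% at dawn, 36.7% at 3.5 h, 35.1% at 7 h, 66.9% at 10.5 h, 86.6% at dusk, 84.8% at 17.5 h and 54.5% at 21 h. The 14 h mean was a median of 3.08 times the lowest mean (range 2.42 to 47.5) and only 1.08 times the second-highest mean (range 1.00 to 1.78). The second-highest time was dusk for 43 of them and 17.5 h for 28, and it was dawn or 10.5 h for 3 each and 21 h for 1. All 4 libraries at 14 h lay above all 4 at dusk for 10 members and above all 4 at 17.5 h for 15. A single one, OS02G0173100 (rank 92, singled out after its values were seen), had its 14 h libraries above every other library of the day. It stood at 78.8, 79.3, 73.2 and 87.2 CPM at 14 h, against 68.8, 69.9, 67.0 and 72.1 CPM at dusk and 66.3, 66.3, 72.4 and 61.3 CPM at 17.5 h. The margin was narrow and held for the deposited CPM only. Divided by TMM factors (1.01 for 14 h replicate 3, 0.928 for dusk replicate 1), dusk replicate 1 stood above 14 h replicate 3. For the other 77, the rank of 14 h as the highest time was a matter of means, with libraries that overlapped at least 1 other time.

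OS06G0298200 had the widest range of all members. Its CPM was 161, 143, 134 and 115 in the 4 libraries at 14 h, against 2.39, 3.25, 3.52 and 2.49 at 7 h, a 47.5-fold difference in means. The lowest 14 h library was far above the highest at 7 h, and also above every dusk library (103, 106, 94.9 and 86.9 CPM). The 17.5 h libraries, at 118, 124, 142 and 105 CPM, overlapped those of 14 h. Members carry identifiers without names in the files. The reference table pairs only 1 of all 37829 identifiers with an annotation, and 0 of the 100, so no role is stated for them. This does not show that the members lack an annotation elsewhere.

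OS10G0536500, second in rank, reached 533, 280, 341 and 354 CPM at 14 h, against 21.9, 22.9, 17.3 and 23.3 CPM at 7 h, 17.7-fold in means. Replicate 1 stood above the other 14 h libraries, and the lowest of them fell inside the dusk range of 340, 299, 403 and 261 CPM. OS12G0586100 (rank 7) had 306, 247, 227 and 235 CPM at 14 h, against 23.4, 23.7, 26.1 and 11.9 CPM at 3.5 h. Its dusk libraries stood at 257, 249, 249 and 259 CPM, so that the means of 14 h and dusk, 254 and 253 CPM, were nearly equal. By 17.5 h its libraries (153, 169, 173 and 124 CPM) no longer overlapped those of 14 h.

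OS02G0724000 (rank 8) was the only member that stood in any of the 22 gene lists, in the list of photoperiod and flowering genes. That list pairs identifiers with symbols from general knowledge, and the reference table did not hold this pair, so it is given by its identifier. It had 127, 140, 122 and 118 CPM at 14 h, against 12.0, 11.2, 14.8 and 8.41 CPM at 3.5 h, a 10.9-fold difference in means. All 14 h libraries exceeded the dusk libraries (107, 105, 95.1 and 101 CPM) and overlapped those of 17.5 h (116, 138, 140 and 109 CPM). The means at 14 h and 17.5 h were 127 and 126 CPM.

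Levels at 21 h reached up to 82.4% of the 14 h mean among the 78 (median 54.5%). OS03G0279950 (rank 9) was thus not alone in a level that stayed high into the late night. It had 107, 68.7, 76.1 and 86.4 CPM at 14 h, against 8.19, 9.13, 6.95 and 7.59 CPM at 7 h, and still 67.7, 47.9, 40.5 and 72.3 CPM at 21 h. OS06G0714800 (rank 11) stood at 179, 177, 180 and 123 CPM at 14 h, against 19.1, 15.5, 18.0 and 15.1 CPM at 3.5 h. Replicate 4 lay apart below the other 14 h libraries, but above all libraries of the day up to 7 h. OS02G0764100 (rank 12) had a lower level, with 22.4, 26.2, 26.7 and 17.3 CPM at 14 h, against 2.16, 1.56, 2.71 and 1.49 CPM at 3.5 h. OS09G0437500 (rank 14), at 296, 285, 303 and 201 CPM at 14 h, against 23.5, 46.8, 33.0 and 40.8 CPM at 3.5 h, had a sharper peak: its mean was 271 CPM at 14 h, against 152 CPM at 17.5 h and 180 CPM at dusk. The dusk library of replicate 1, at 228 CPM, exceeded the lowest 14 h library.

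OS12G0552500 (rank 75) had the highest 14 h mean of the members, 421 CPM, and a shallow curve. Its libraries stood at 390, 449, 448 and 397 CPM at 14 h, against 166, 153, 186 and 143 CPM at dawn. They overlapped those of 10.5 h, at 406, 491, 382 and 391 CPM with a mean of 417 CPM, so that the level of 14 h was already present in the afternoon. CPM is not scaled by transcript length, so it does not rank different genes by abundance. At the lower end of the ranking, OS12G0155100 (rank 99, log2 range 1.25) and OS02G0616300 (rank 100, 1.24) stood just inside, and OS04G0579200 (1.23) and OS03G0364400 (1.23) just outside. OS02G0616300 had the same mean at 14 h and 17.5 h to 3 digits, 27.6 CPM.

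**Figure D2:**
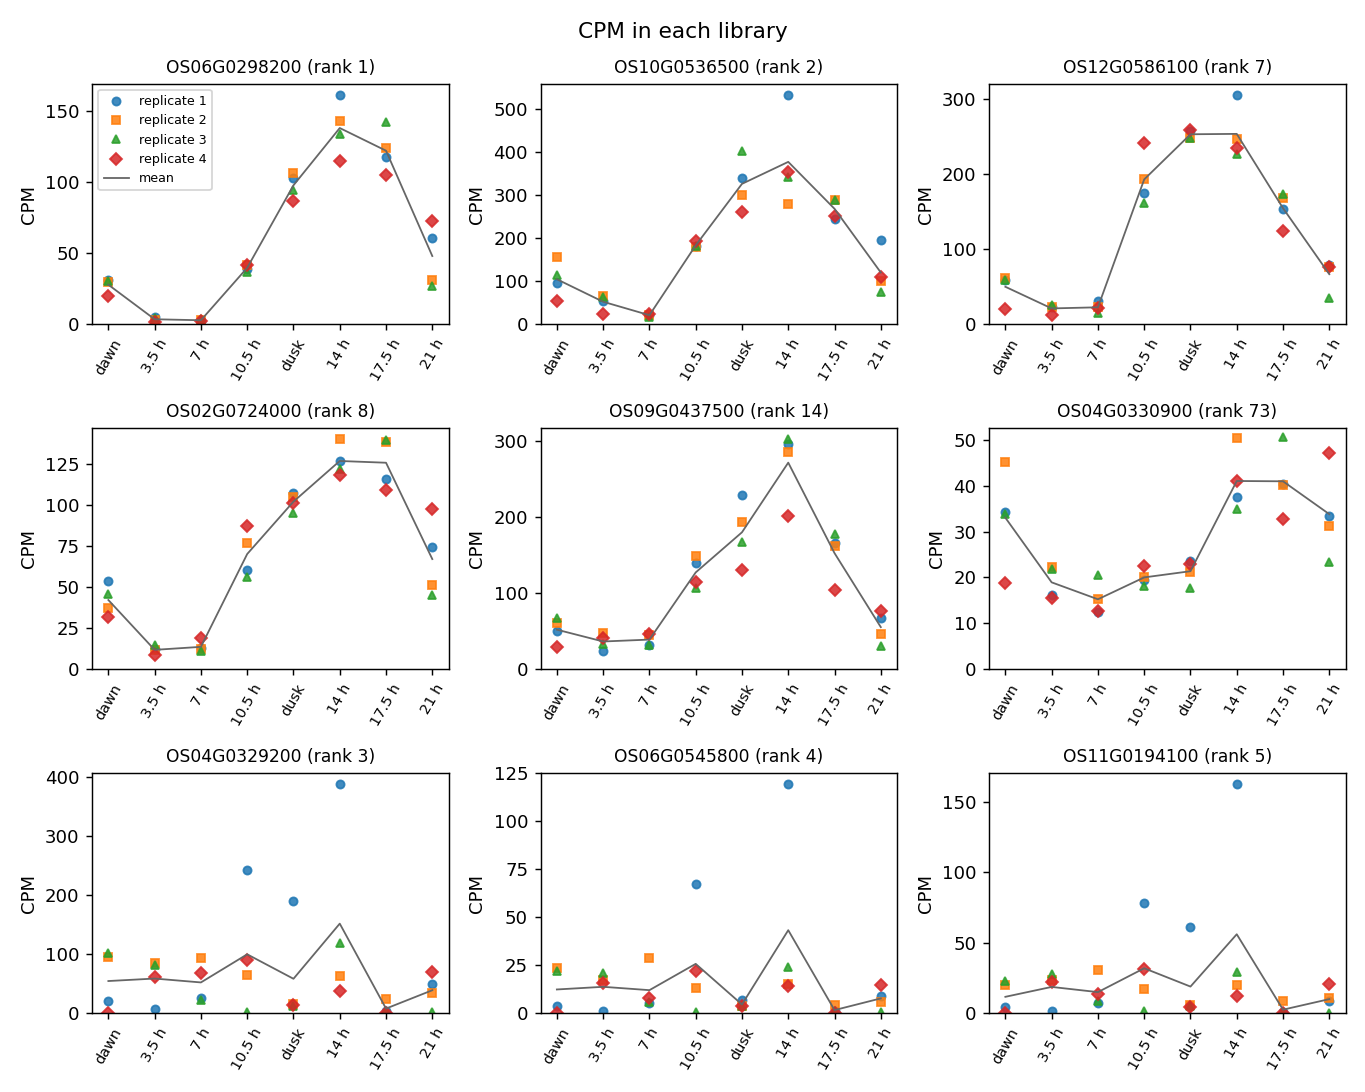
CPM (linear axes from 0) of 9 members in each of the 4 libraries at the 8 times, with the mean as a line; replicates share only a number. The 6 upper panels show members with a daytime low point, whose 14 h libraries spread less, relative to their mean, than those of the lower panels. The 3 lower panels show members lowest at 17.5 h, where 14 h replicate 1 stands far above the other 14 h libraries (388, 119 and 163 CPM in order of rank).

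Contrasts that hold no 14 h library were tested by quasi-likelihood in edgeR, with p-values adjusted by Benjamini-Hochberg over 25766 genes. They ask when the 78 evening transcripts changed during the rest of the day. The rule also fixed each gene's lowest time, and a curve that is high at 14 h and low in the day tends to climb between them, so the counts describe these members. Where lowest times fall in a pair for more than 1 member, counts are given first for members lowest at another time and then for the 78, where the choice fixes part of the count. Between 7 h and 10.5 h, 23 of the 41 members lowest at another time rose and 0 fell, against 1.81% of all genes higher and 2.34% lower. Over the 78, 37 were called higher and 0 lower. Without the 3 libraries least like their time, 44 of the 78 were called higher. The median log2 difference over the 41 was 0.78 against -0.00083 over all genes, and 41 of 41 were positive. Over the 78, where the choice fixes part of the signs, it was 0.89, with 77 of 78 positive.

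Of the members named here, 10 were called higher in this interval. For 3 of them 7 h is the lowest time, so their log2 differences are a description: 3.77 ± 0.34 (SE) for OS06G0298200, 3.11 ± 0.38 for OS10G0536500 and 2.39 ± 0.26 for OS03G0279950. Among the other 7, OS12G0586100 had the largest log2 difference, 3.08 ± 0.35 (adjusted p = 1.07e-06). OS02G0724000 rose by 2.39 ± 0.25 (adjusted p = 3.49e-07), OS06G0714800 by 2.25 ± 0.28 and OS09G0437500 by 1.73 ± 0.32. OS02G0764100 rose by 1.82 ± 0.44 (adjusted p = 0.0135), a call lost without 7 h replicate 3 (adjusted p = 0.0575). The smallest was that of OS01G0618400 (rank 85), with 95.5, 108, 125 and 117 CPM at 10.5 h, against 83.1, 73.0, 84.5 and 79.2 CPM at 7 h, 0.48 ± 0.13 in log2 (adjusted p = 0.0221). No library of this gene overlapped between the times, yet the call was lost when any 1 of 4 libraries of these times was left out, with adjusted p-values up to 0.0975.

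Few genes of any kind were called between 10.5 h and dusk. In this contrast 1 of the 78 rose and 0 fell, against 0.0349% of all genes higher and 0.151% lower. The median level of the 78 was 86.6% of the 14 h mean at dusk and 66.9% at 10.5 h, so few calls here do not show a level curve. The riser was OS05G0491200 (rank 49), at 65.7, 109, 80.2 and 76.7 CPM at dusk, against 24.1, 49.0, 48.4 and 33.9 CPM at 10.5 h, a log2 difference of 0.98 ± 0.21 (adjusted p = 0.0457). Its dusk libraries all lay above its 10.5 h libraries, but the call was lost under 17 of 39 alternatives, with adjusted p-values between 0.00111 and 0.23. The median log2 difference of the 78 was 0.26, with 66 of 78 positive, and 17 had an unadjusted p under 0.05. Leaving out dusk replicate 1 gave 244 genes in all, against 48 with it. Without the 3 libraries least like their time, 2 of the 78 rose.

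Between dusk and 17.5 h, 1 of the 78 rose and 0 fell, below the 3.92% of all genes called higher and 3.84% lower. That contrast spans the 14 h peak, and the median log2 difference of the 78 was -0.12, with 27 of 78 positive and 9 at an unadjusted p under 0.05. OS04G0330900 (rank 73) was the riser, at 40.3, 40.1, 50.7 and 32.8 CPM at 17.5 h, against 23.5, 21.1, 17.7 and 23.0 CPM at dusk. Its log2 difference was 0.88 ± 0.26 (adjusted p = 0.0328), without overlap between libraries, and the call was lost when any of 6 libraries of these times was left out (adjusted p up to 0.131). Its 14 h libraries stood at 37.7, 50.5, 34.9 and 41.2 CPM, all above dusk, with means of 41.1 CPM at 14 h and 21.4 CPM at dusk. Without the 3 libraries least like their time, 1 of the 78 rose and 1 fell.

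Members also fell in the second part of the night. Between 17.5 h and 21 h, 13 of the 75 members lowest at another time fell and 0 rose, against 3.53% of all genes lower and 5.04% higher. Over the 78, 15 were called lower and 0 higher. The median log2 difference was -0.38 over the 75 and also over the 78, against -0.04 over all genes. OS01G0618400 had the lowest adjusted p, with 47.4, 49.6, 71.5 and 70.4 CPM at 21 h, against 124, 103, 112 and 111 CPM at 17.5 h, a log2 difference of -0.72 ± 0.13 (adjusted p = 2.91e-04). OS09G0437500 fell by 1.24 ± 0.32 (adjusted p = 0.0131) and OS06G0298200 fell by 1.11 ± 0.30 (adjusted p = 0.0172) on the log2 scale. Both of these calls were lost without 21 h replicate 2, the second also without 17.5 h replicate 3 (highest adjusted p over the alternatives 0.0522 and 0.0798), and the count of 15 dropped to 9 without that library. With library totals alone as the scaling, 37 of the 78 fell, in a fit whose median over all genes was itself -0.24 and where 33.3% of calls were higher rather than 58.8%. The count of fallers therefore depended on the scaling, and 0 of the 78 rose under each alternative run. Without the 3 libraries least like their time, 15 fell.

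Members fell in the morning as well. Between dawn and 3.5 h, 10 of the 40 members lowest at another time fell and 0 rose, against 6.04% of all genes lower and 5.47% higher. Over the 78, 30 were called lower and 1 higher. OS06G0298200 stood at 5.36, 3.27, 4.22 and 1.63 CPM at 3.5 h, against 31.0, 29.7, 30.7 and 20.2 CPM at dawn, a log2 difference of -2.82 ± 0.32 (adjusted p = 1.5e-06). OS03G0279950 and OS05G0491200, both also lowest at 7 h, fell by 1.17 ± 0.25 (adjusted p = 0.00207) and 1.11 ± 0.21 (adjusted p = 8.79e-04) in log2. OS02G0724000, lowest at 3.5 h, had a log2 difference of -1.72 ± 0.25, given as a description. The count of 30 moved to 17 without dawn replicate 2 and to 43 without the 3 libraries least like their time. The 1 member called higher, OS12G0552500, has its lowest time at dawn and stood at 230, 260, 307 and 206 CPM at 3.5 h, against 166, 153, 186 and 143 CPM at dawn, a log2 difference of 0.76 ± 0.21. Its call was lost when any 1 of 3 libraries of these times was left out, dawn replicate 4 among them.

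Between 3.5 h and 7 h, 0 of the 9 members lowest at another time were called, against 5.29% of all genes higher and 3.33% lower, and 1 of the 9 had an unadjusted p under 0.05. Over the 78, 6 were called higher and 4 lower, all of them members whose lowest time is 3.5 h or 7 h, so these calls restate the rule and their values are a description. OS11G0131800 (rank 26), lowest at 3.5 h, had 11.5, 12.8, 10.9 and 13.0 CPM at 7 h, against 4.37, 4.62, 4.28 and 7.05 CPM at 3.5 h (log2 1.13 ± 0.18). OS10G0536500, lowest at 7 h, had 21.9, 22.9, 17.3 and 23.3 CPM at 7 h, against 54.4, 66.2, 64.5 and 25.0 CPM at 3.5 h (log2 -1.45 ± 0.36). Without 3.5 h replicate 3 the counts were 3 higher and 2 lower, and without 3.5 h replicate 4, 7 were lower. With the 3 libraries least like their time left out, 8 were lower.

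At 21 h against dawn, the times on either side of the end of the night, 0 of the 70 members lowest at another time were called in edgeR. The count was also 0 over the 78, as were 0% of all genes in either direction. Of the 70, 8 had an unadjusted p under 0.05, and of the 78, 9 did. DESeq2 called 36 genes in all, none of them among the 78. Without the 3 libraries least like their time, edgeR called 8 genes in all and 0 of the 78. The median log2 difference was 0.07 over the 70 and 0.08 over the 78. The summed CPM of the 78 spread more at these times than at others: it ran from 2452 to 3980 at 21 h and from 2251 to 3956 at dawn, against 1925 to 2150 at 7 h and 5871 to 6942 at 14 h. The lowest sums at 21 h and at dawn were those of replicate 3 and replicate 4, the libraries least like their time.

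**Figure D3:**
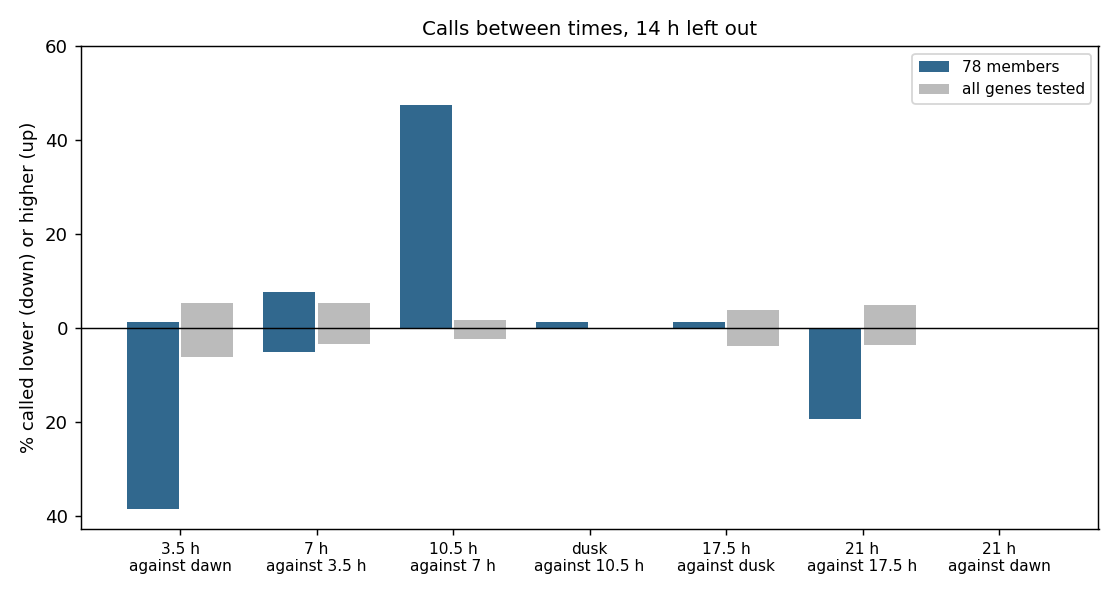
Percentage of the 78 members and of all 25766 genes tested that were called higher (bars up) or lower (bars down) between times that do not include 14 h, edgeR adjusted p under 0.05. Among the 78, members whose lowest time is in the pair included, 30 were lower at 3.5 h than at dawn, 37 higher at 10.5 h than at 7 h and 15 lower at 21 h than at 17.5 h, with 1 call each in the contrasts that include dusk. The choice of members fixes part of these counts. Among members lowest at another time, the first 3 counts were 10 of 40, 23 of 41 and 13 of 75.

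The 22 transcripts lowest at 17.5 h had another pattern. Their median level, as a percentage of the 14 h mean, was 47.0% at dawn, 61.2% at 3.5 h, 53.4% at 7 h, 77.3% at 10.5 h, 59.7% at dusk, 22.7% at 17.5 h and 45.0% at 21 h, and the second-highest time was 10.5 h for 20 of them. Their libraries at 14 h scattered widely, with a median coefficient of variation of 64.8% against 18.6% for the 78. Differences between times took up a median of 30.3% of the variance of log2(CPM + 1) in the 22 and 82.4% in the 78. The ranges overlapped, at 23.8 to 37.5% in the 22 and 30.9 to 97.5% in the 78. The 22 include ranks 3 to 6 and 10.

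OS04G0329200 (rank 3) stood at 388, 62.9, 119 and 37.6 CPM at 14 h, against 3.70, 23.8, 4.56 and 0.62 CPM at 17.5 h. The 14 h libraries lay above those of 17.5 h, as the rule demands, but the highest of them stood far above the other 3. OS06G0545800 (rank 4) had 119, 15.4, 24.0 and 14.5 CPM at 14 h, against 1.01, 4.31, 1.35 and 0.186 CPM at 17.5 h. OS11G0194100 (rank 5) had 163, 19.9, 29.6 and 12.4 CPM at 14 h, against 0.841, 8.45, 0.844 and 0.434 CPM at 17.5 h. In all of these, replicate 1 was highest and replicate 4 lowest at 14 h, and replicate 2 was highest at 17.5 h.

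OS02G0798501 (rank 6) had 85.1, 21.1, 39.8 and 11.5 CPM at 14 h, against 1.14, 6.16, 1.27 and 0.124 CPM at 17.5 h, and OS09G0267400 (rank 10) had 196, 73.2, 136 and 30.3 CPM at 14 h, against 5.62, 26.8, 8.78 and 1.24 CPM at 17.5 h. The order of the libraries was the same in both. At dusk, 4 of these 5 transcripts were high in replicate 1 alone, for example 180 CPM in OS09G0267400 against 11.5, 25.8 and 23.6 CPM in the other dusk libraries. OS06G0545800 was the exception, with 7.13 CPM in dusk replicate 1 and 3.98, 3.78 and 3.69 CPM in the others.

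The markers of mature pollen moved with these 22 from library to library. The 22 summed to 2114, 800, 1185 and 442 CPM in the 4 libraries at 14 h, and the 3 pollen markers to 61.7, 24.6, 53.3 and 6.04 CPM in the same libraries. At 17.5 h the 22 summed to 206, 361, 246 and 209 CPM and the markers to 3.33, 18.4, 5.32 and 2.36 CPM. The library highest in one sum was highest in the other at both times. With each library centred on the mean of its time, log2(sum + 1) of the 22 correlated with that of the markers at r = 0.97 (Spearman's rho = 0.95) over 32 libraries, and at 0.96 without the 2 libraries farthest from the median. These points share library and depth. The values against other measures were 0.66 for tapetum markers, -0.74 for dividing-cell markers, 0.28 for light-harvesting genes and 0.11 for the library total. Without the 2 farthest libraries of each measure they were 0.50, -0.65, 0.12 and 0.12. At 14 h, GAMYB held 45.6 of the 62.2 CPM in the mean tapetum sum, and the tapetum markers did not move alike. TDR had 13.2, 9.37, 14.5 and 1.12 CPM in the 14 h libraries, and UDT1 had 2.71, 4.20, 2.89 and 4.93 CPM. The part of pollen content in the 14 h rank of the 22 transcripts was not tested.

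Member by member, the correlation with the pollen markers was at least 0.5 for 22 of the 22 (lowest 0.73, median 0.95), for 16 of the 78 (median 0.20) and for 1751 of the 14622 genes of at least 10 CPM (12.0%, median -0.39). The 22 also moved with each other, with a median r over pairs of 0.92, against 0.30 among the 78. For the sum of the 78 the correlation with pollen markers was 0.45, and 0.40 without the 2 farthest libraries. Its correlation was -0.57 with dividing-cell markers and 0.48 with light-harvesting genes, or -0.75 and 0.19 without the 2 farthest libraries of each. With tapetum markers it was 0.05 and with the library total 0.19. The sum of the 78 at 14 h was 6942, 6467, 6026 and 5871 CPM, highest in replicate 1 and lowest in replicate 4, as the pollen sum was, with a ratio of 1.18 between highest and lowest against 10.2 for the pollen sum.

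**Figure D4:**
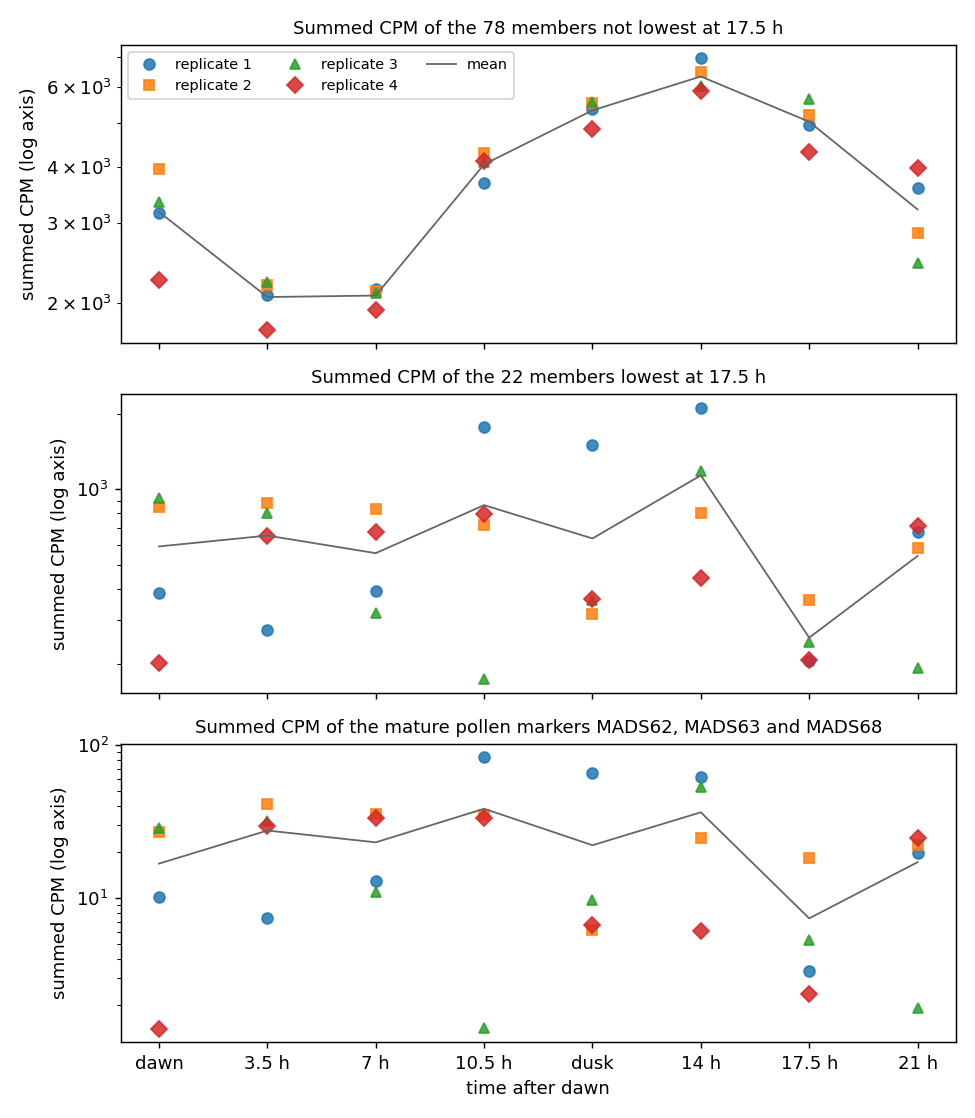
Summed CPM per library (log axes) of the 78 members with a daytime or dawn low point, the 22 members lowest at 17.5 h, and the 3 pollen markers, with the mean of each time as a line. The 22 and the pollen markers are high and low in the same libraries, such as 10.5 h replicate 1 (1765 and 83.6 CPM) and 10.5 h replicate 3 (174 and 1.39 CPM), while the 78 stand between 3686 and 4290 CPM in the 4 libraries of that time.

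Of the 22, 0 were called in any of the 7 contrasts by edgeR, by DESeq2 or by limma-trend. The share of all genes called by edgeR in 1 direction ran from 0 to 6.04% over these contrasts. In edgeR, 13 of the 22 had an unadjusted p under 0.05 between dusk and 17.5 h, 7 between 17.5 h and 21 h, 1 between 10.5 h and dusk, and 0 in the others. The median log2 differences were -1.56 at 17.5 h against dusk and 1.43 at 21 h against 17.5 h, both in pairs that hold the lowest time fixed by the rule. With the 3 libraries least like their time left out, 11 of the 22 were called higher at 21 h than at 17.5 h, a pair that holds their lowest time. That fit called 3070 of 26166 genes higher and 2168 lower, against 1299 and 909 of 25766 in the main fit. Without 21 h replicate 3 alone, 1 of the 22 was called higher.

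Which transcripts made up the 100 depended on single libraries. Without 17.5 h replicate 2, the library with the most pollen markers at that time, only 8 of the 100 were chosen again, although 94 still met the condition on separate libraries. Of the 100 genes then chosen, 97 had a correlation of at least 0.5 with the pollen markers, against 38 of the 100 described here. Without 14 h replicate 4, the shallowest library and the one with the fewest pollen markers at 14 h, 15 were chosen again and 91 of the new 100 had such a correlation. Without 14 h replicate 1, 57 were chosen again, 52 of the 78 and 5 of the 22, and 17 of the new 100 had it. Leaving out any other single library kept 82 to 99, and leaving out the 3 libraries least like their time together kept 82. Without the condition on separate libraries 18 were kept, and 93 of that 100 followed the pollen markers to this degree.

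**Figure D5:**
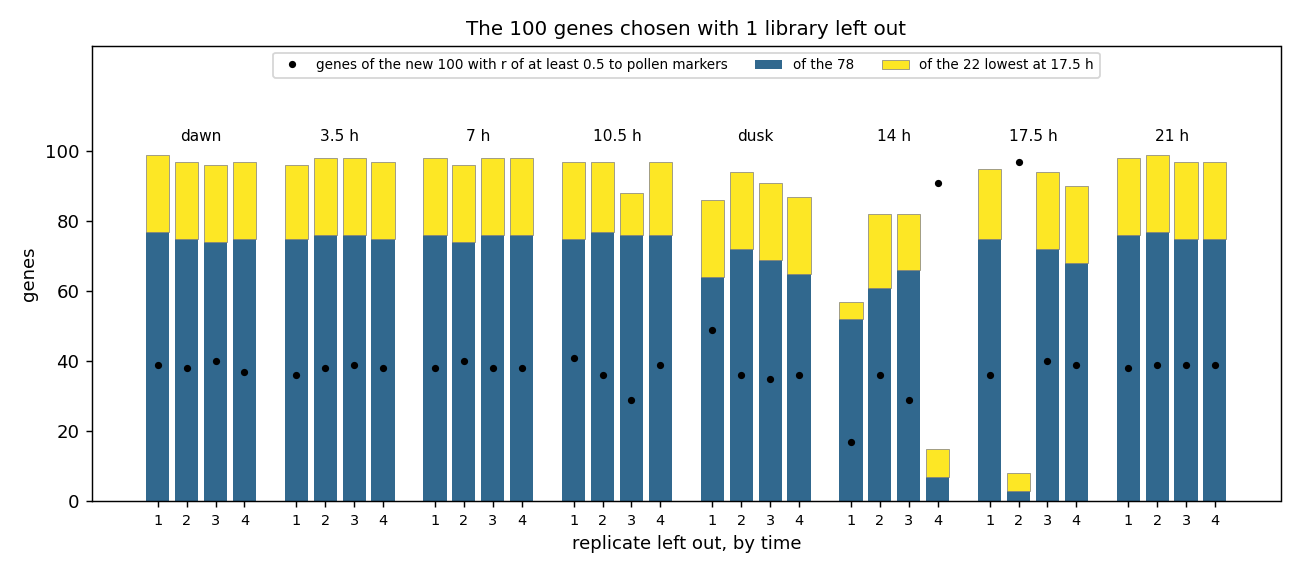
Number of the 100 members chosen again when each of the 32 libraries is left out (stacked bars, the 78 below and the 22 above), and number of genes in the newly chosen 100 with a correlation of at least 0.5 to the pollen markers (dots). Leaving out 17.5 h replicate 2 or 14 h replicate 4 keeps 8 or 15 members and gives lists with 97 or 91 such genes.

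Among the 194 list genes used, 11 were highest at 14 h, 5 met the condition on separate libraries, and OS02G0724000 alone ranked in the 100. The other 4 were genes of light perception, the clock and flowering. PHYB (OS03G0309200, rank 364) and PHYC (OS03G0752100, rank 207) are phytochromes, red-light receptors that act in photoperiodic flowering of rice. PHYB stood at 169, 200, 152 and 174 CPM at 14 h, against 102, 79.5, 119 and 99.5 CPM at 7 h, and PHYC at 59.1, 51.6, 50.3 and 56.0 CPM at 14 h, against 23.3, 26.5, 28.6 and 31.2 CPM at 3.5 h. ELF3-2 (OS01G0566100, rank 115), a homologue of the evening-complex gene ELF3, had 12.3, 17.1, 18.6 and 11.7 CPM at 14 h, against 7.08, 3.88, 7.88 and 5.56 CPM at dawn. MADS50 (OS03G0122600, rank 420), a flowering activator of rice, had 19.3, 20.3, 20.4 and 14.3 CPM at 14 h, against 10.8, 10.2, 11.8 and 9.95 CPM at 7 h. Their ranges were narrower than those of the 100, as the ranking by range requires, and edgeR called 0 of the 4 in each of the 7 contrasts. At 10.5 h against 7 h, 3 of the 4 had an unadjusted p under 0.05, and DESeq2 called 1 in that contrast and 1 at 7 h against 3.5 h. Limma-trend called 1 at 3.5 h against dawn and 1 at 21 h against 17.5 h.

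The lists around these genes held 14 core clock genes, 12 genes of photoperiod and flowering and 6 photoreceptor genes that were tested. Between 7 h and 10.5 h, 3 clock genes were higher and 2 lower, 1 photoperiod gene was higher, OS02G0724000 itself, and 0 photoreceptors were called, beside 1.81% of all genes higher and 2.34% lower. Between dusk and 17.5 h, 1 clock gene rose and 8 fell, 1 photoperiod gene rose and 1 photoreceptor fell, beside 3.92% of all genes higher and 3.84% lower. Between 17.5 h and 21 h, 2 clock genes rose and 5 fell, and 4 photoperiod genes and 1 photoreceptor rose, beside 5.04% of all genes higher and 3.53% lower. Between dawn and 3.5 h, 6 clock genes and 1 photoreceptor rose and 2 clock genes fell, beside 5.47% of all genes higher and 6.04% lower. The 1 photoperiod gene that was lower was again OS02G0724000. Its lowest time is 3.5 h, so the choice fixed that direction and the call is a description. Between 3.5 h and 7 h, 6 clock genes rose and 1 fell, 1 photoperiod gene rose and 1 photoreceptor fell, beside 5.29% of all genes higher and 3.33% lower. Between 10.5 h and dusk 2 clock genes fell, beside 0.151% of all genes, and at 21 h against dawn 0 genes of these lists were called. The pairing of PHYB, PHYC and MADS50 with their identifiers was in order with the reference table, and that of ELF3-2 and the pollen markers rests on general knowledge alone.

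The rule did not use the position of a gene or its neighbours. The identifiers, which number genes along each chromosome, placed 11 members on chromosome 12, which holds 5.10% of the genes of at least 10 CPM, and 2 on chromosome 7, which holds 7.52%. These chromosomes were singled out after the values were seen, and position was not tested. Chromosome 1 had 15 members against 14.3% of those genes, chromosome 2 had 12 against 12.4% and chromosome 3 had 10 against 14.6%. OS11G0139700 (rank 27) and OS12G0136500 (rank 31) were the pair of the 78 whose libraries moved together most closely, at r = 0.95 within times over 32 libraries. OS11G0139700 stood at 192, 335, 159 and 103 CPM at 14 h, against 54.5, 41.3, 47.9 and 35.1 CPM at 7 h. OS12G0136500 stood at 156, 265, 129 and 94.5 CPM at 14 h, against 42.8, 40.9, 39.5 and 31.3 CPM at 7 h. The order of the libraries at 14 h was the same in both. The short arms of chromosomes 11 and 12 of rice end in a duplicated stretch, and counting can split reads between near-identical copies. Whether this pair lies in that stretch, or shares reads, was not tested. Both were singled out after their values were seen.

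OS12G0611000 (rank 74) and OS12G0611100 (rank 45) were the only members within 3 rows of each other in the table, and they belonged to different kinds. OS12G0611000, of the 22, had 86.5, 67.6, 88.1 and 32.9 CPM at 14 h, against 21.5, 29.0, 28.2 and 25.0 CPM at 17.5 h. OS12G0611100, of the 78, had 22.6, 33.6, 27.9 and 37.7 CPM at 14 h, against 12.1, 6.54, 8.86 and 8.00 CPM at 3.5 h, and within times they ran opposite (r = -0.56). OS01G0566050 (rank 71) is numbered next to ELF3-2. Within times it correlated with the pollen markers at r = 0.87, the highest of the 78, and with ELF3-2 at r = 0.61. It had 33.4, 31.9, 34.5 and 21.1 CPM at 14 h, against 9.32, 14.8, 7.94 and 11.5 CPM at 7 h. Whether this member and ELF3-2 overlap or lie on opposite strands, and whether the counting used strand, is not given in the sources used here, so their reads cannot be told apart with certainty. Identifiers that do not end in 00, the usual step of the numbering, made up 6 of the 22 (27.3%) and 3 of the 78 (3.85%), against 2.93% of genes of at least 10 CPM.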

How the data were processed

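RNA of 32 rice panicle samples, 4 at each of 8 times, was sequenced, and groups and replicate numbers come from the sample labels. The submitters' processing notes name the build IRGSP-1.0, HTSeq version 0.6.0 and TopHat2 version 2. For the counting, neither annotation release nor strand setting is stated in the sources used here. The authors deposited whole-number counts per gene and CPM values, and the deposited CPM equalled the count over the library total (largest difference 5e-07). The build comes from a japonica variety, and reads of genes that differ in the indica variety IR64 can be missed.

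Members were chosen on the deposited CPM with a minimum mean of 10 CPM and a pseudocount of 1. The members and the gene lists were chosen with earlier results of these data known. Named genes are the first 12 ranks, members in a list, the 3 highest 14 h means, ranks 99 to 102 and, per contrast and direction, the called member of lowest adjusted p. Of 196 list pairs, 117 were in order with the reference table (ASM3414082v1), 77 were absent from it, and 2, which stood elsewhere, were left out. No column was left unused (0 columns).

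Counts were tested with glmQLFit and glmQLFTest of edgeR 4.0.16 in R 4.3.3, with TMM factors, filterByExpr (25766 genes), all 32 libraries in 1 fit with a mean per time, and Benjamini-Hochberg adjustment at 0.05. The standard error of a log2 difference is the difference over the square root of F. Totals of 10.8 to 43.9 M counts gave members at least 47 counts in each 14 h library. On simulated counts of 17.5 h against dusk (25419 genes), 42 and 50% of true log2 changes of 1 and -1 and 70% of those of 2 and -2 were recovered, with 3 unchanged genes called. Alternatives were DESeq2 1.42.0, limma-trend (limma 3.58.1) on log2(CPM + 1), RLE factors, library totals alone, no filter, a replicate block and each library left out. Leaving out the 3 libraries least like their time was added after the data were seen.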

Additional observations from a re-analysis of the deposited data

Results flagged for a closer look

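Within a time, 8 of 56 sets of 4 libraries held a library far from the other 3 (gap over range above Dixon's 95% critical value). The sets were those of 14 h and of the lowest time for the members described in full, and of each time for the 2 sums. The rate of about 1 in 20 behind that value holds for separate sets of normally distributed values. These sets share libraries, and all sets of members hold the 14 h or lowest levels that chose them. Levels of the members at other times were not scanned. The count is therefore a description and is not set against that rate. Most of the flagged sets concerned transcripts lowest at 17.5 h. OS04G0329200 had 23.8 CPM in 17.5 h replicate 2, against 0.62 to 4.56 CPM in the others. OS06G0545800 had 119 CPM in 14 h replicate 1, against 14.5 to 24.0 CPM. OS11G0194100 had 163 CPM in 14 h replicate 1, against 12.4 to 29.6 CPM, and 8.45 CPM in 17.5 h replicate 2, against 0.434 to 0.844 CPM. The summed CPM of the 22 transcripts lowest at 17.5 h was 1500 in dusk replicate 1, against 317 to 364 in the other dusk libraries, where pollen markers summed to 66.1 CPM, against 6.14 to 9.72 CPM. Among the 78 others, 14 h replicate 4 was low for OS06G0714800 (123 CPM, against 177 to 180.0 CPM) and for OS09G0437500 (201 CPM, against 285 to 303 CPM). OS11G0131800 had 7.05 CPM in 3.5 h replicate 4, against 4.28 to 4.62 CPM.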

How the results depend on the processing

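Of the 100 members, 80 were chosen again with TMM-scaled CPM, 77 with DESeq2 size factors, 97 and 92 with pseudocounts of 0.1 and 5, 79 with medians, 77 with a minimum of 5 CPM, 57 with no minimum, 66 with a minimum of 20 CPM, 18 without the condition on separate libraries, and 8 to 99 with 1 library left out. Among the 78, DESeq2 called 3 higher and 1 lower at 17.5 h against dusk, 2 higher at dusk against 10.5 h, 9 lower at 7 h against 3.5 h and 2 higher at 3.5 h against dawn. Over all genes it called 3115, 398 and 1721 at 17.5 h against dusk, dusk against 10.5 h and 10.5 h against 7 h, against 1998, 48 and 1069 by edgeR, and 36 against 0 at 21 h against dawn. Library totals alone gave 2 higher at dusk against 10.5 h (27 genes), 2 higher at 3.5 h against dawn and 37 lower at 21 h against 17.5 h. Limma-trend gave 2 higher at 17.5 h against dusk, 2 at dusk against 10.5 h (28 genes) and 2 at 3.5 h against dawn, and 40 lower at 21 h against 17.5 h. Without the filter, 0 were higher at dusk against 10.5 h. Without the 3 libraries least like their time, 1 was lower at 17.5 h against dusk, 2 were higher at dusk against 10.5 h (495 genes), 8 lower at 7 h against 3.5 h and 2 higher at 3.5 h against dawn, with 5238 genes at 21 h against 17.5 h and 8 at 21 h against dawn. No called value of a named member changed sign under the alternatives run. Values that were not called did: with 1 library left out, the log2 difference at dusk against 10.5 h ran from -3.03 to 0.23 for OS04G0329200 and from -2.91 to 0.27 for OS11G0194100, and that at 17.5 h against dusk from -0.32 to 0.10 for OS02G0764100. The causes of these differences were not tested.

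With 1 library left out, the members called ranged as follows: 0 to 2 higher and 0 to 1 lower at 17.5 h against dusk, 0 to 1 higher at dusk against 10.5 h, 28 to 40 higher at 10.5 h against 7 h, 3 to 7 higher and 2 to 7 lower at 7 h against 3.5 h, 0 to 4 higher and 17 to 40 lower at 3.5 h against dawn, and 9 to 21 lower at 21 h against 17.5 h. Genes called ranged from 1041 to 2325 at 17.5 h against dusk, 13 to 244 at dusk against 10.5 h, 762 to 1208 at 10.5 h against 7 h, 1166 to 2665 at 7 h against 3.5 h, 1970 to 3587 at 3.5 h against dawn, 1412 to 3385 at 21 h against 17.5 h and 0 to 33 at 21 h against dawn.

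With library totals alone the share of calls that were higher was 72.6% at 7 h against 3.5 h, 30.1% at 3.5 h against dawn, 40.7% at dusk against 10.5 h and 33.3% at 21 h against 17.5 h, against 61.4, 47.5, 18.8 and 58.8% with TMM, and RLE factors gave 51.1% at 7 h against 3.5 h. The median of all genes with library totals alone stood at 0.14, -0.14, 0.11 and -0.24 in these contrasts. At dusk against 10.5 h the majority turned to 60.2% higher without dusk replicate 1. Libraries with the same replicate number had a median r of 0.080 over 112 pairs (53 above 0.1), against 0.0052 for different numbers, and 12 of 32 were closest to their own number, so the number was not taken as a pairing. A replicate block gave 76 genes rather than 48 at dusk against 10.5 h, and 2 members higher at 3.5 h against dawn. With 4 libraries a time, missed calls do not show that levels were alike.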

Other observations

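The condition on separate libraries was met by 54.0% of the genes highest at 14 h, between 46.0% at dusk and 76.6% at 17.5 h. Counts of genes that met it were 1226 at dawn, 669 at 3.5 h, 894 at 7 h, 725 at 10.5 h, 1260 at dusk, 977 at 14 h, 3169 at 17.5 h and 624 at 21 h.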
